A study of Mus musculus with 12 samples.

Results

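The genes described are 6 insulin-like growth factor binding protein genes (Igfbp2, Igfbp3, Igfbp4, Igfbp5, Igfbp6 and Igfbp7), the ligand gene Igf1 and its receptor gene Igf1r. They are 8 of the 25965 gene rows of the deposited expression table, taken by exact symbol, and all 8 passed the filter on low values that left 14063 genes to test. Igfbp6 and Igf1 passed it only through a few of the 12 libraries. RNA was sequenced from C57BL/6 mouse embryonic stem (ES) cells, labelled male, on their way to neuromesodermal progenitors, the bipotent cells of the caudal embryo. Smchd1, a gene for a chromatin repressor, was deleted (del/del) or carried floxed alleles (fl/fl). There were 6 groups of 2 libraries: Smchd1 del/del and Smchd1 fl/fl cells at day 1, at day 5 and at day 8. Each line grew out of a single blastocyst and was then divided. The del/del cells received the retrovirus MSCV-Cre-puro and puromycin selection, while the fl/fl cells were neither transduced nor selected, so the deletion and the transduction with selection cannot be told apart in any genotype comparison. The column names give line 1 as replicate 1 and line 3 as replicate 2 of every group. All cells were moved from 2i with LIF into serum with LIF. LIF was then withdrawn and Fgf2 given, and a Gsk3 inhibitor was added before day 5 in both genotypes. Gdf11 was added after that, between day 5 and day 8, so the day 8 but not the day 5 libraries had Gdf11. Time in culture and Gdf11 cannot be told apart between these days. The first sampling is day 1 in the titles and day 0 in the protocol, and it is called day 1 here.

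The insulin-like growth factors IGF1 and IGF2 signal mainly through the IGF1 receptor, a tyrosine kinase that acts through IRS adaptors, PI3K and Akt on growth and survival. In body fluids and matrix most IGF is held by secreted binding proteins, which limit its access to the receptor or store it, and proteases such as PAPP-A release it by cutting some of them. IGFBP7 binds IGFs with low affinity and is also known as a matrix and blood vessel protein, and several binding proteins act on cells without IGF as well.

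Igfbp2 and Igfbp5 are neighbours on mouse chromosome 1 (mm10), pointing at each other with 5457 bases between their ends: Igfbp2 spans chr1:72824503-72852474 on the plus strand and Igfbp5 spans chr1:72857932-72874884 on the minus strand. Igfbp3 lies at chr11:7206086-7213923 on the minus strand, beside Igfbp1, and Igfbp4 lies at chr11:99041244-99054392 on the plus strand of the same chromosome. Igfbp6 is at chr15:102144362-102149511 and Igfbp7 at chr5:77349240-77408045, on the plus and the minus strand in that order. Igf1 is at chr10:87858265-87937042 and Igf1r at chr7:67952859-68226780, both on the plus strand. Only the exons of Igfbp7 overlapped another annotated gene: 85 bp, or 7.03% of its exon length, are shared with Polr2b on the opposite strand, and no source used here says whether counting used strand.

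The promoters of Igfbp2, Igfbp3, Igfbp4 and Igfbp5 are shown because these were the 4 genes called higher in del/del cells at day 8. Each is the RefSeq window of 300 bases on GRCm38.p6, with 250 bases before the start site and 50 after, read 5′ to 3′ on the strand of the gene. Windows were found for all 8 genes, and Igfbp2 had 2 entries, of which the one listed first is given. Capitals mark the AT-rich hexamer TATAAA, the TATA box core, its variant TATATA, and the hexamer TTTAAA, each searched on both strands. The windows are chr1:72824230-72824529 on the plus strand for Igfbp2, chr11:7213874-7214173 on the minus strand for Igfbp3, chr11:99040994-99041293 on the plus strand for Igfbp4 and chr1:72874816-72875115 on the minus strand for Igfbp5.
Igfbp2: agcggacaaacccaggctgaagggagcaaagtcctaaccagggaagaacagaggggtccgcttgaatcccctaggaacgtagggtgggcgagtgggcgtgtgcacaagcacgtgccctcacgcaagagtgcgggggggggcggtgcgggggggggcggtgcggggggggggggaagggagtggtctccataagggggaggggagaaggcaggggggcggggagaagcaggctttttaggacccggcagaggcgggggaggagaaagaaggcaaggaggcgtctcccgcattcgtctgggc
Igfbp3: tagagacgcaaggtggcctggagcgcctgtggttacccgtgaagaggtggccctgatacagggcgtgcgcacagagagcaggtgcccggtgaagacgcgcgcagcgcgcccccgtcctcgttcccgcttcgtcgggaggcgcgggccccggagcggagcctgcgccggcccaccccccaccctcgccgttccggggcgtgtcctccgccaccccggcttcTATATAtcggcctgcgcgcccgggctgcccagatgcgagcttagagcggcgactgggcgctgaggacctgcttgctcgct
Igfbp4: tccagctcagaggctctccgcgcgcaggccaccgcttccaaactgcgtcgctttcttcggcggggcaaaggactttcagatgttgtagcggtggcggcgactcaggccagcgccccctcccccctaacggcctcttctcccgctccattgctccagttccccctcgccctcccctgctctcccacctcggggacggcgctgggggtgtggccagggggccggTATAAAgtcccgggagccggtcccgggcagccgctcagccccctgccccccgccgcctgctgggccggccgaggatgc
Igfbp5: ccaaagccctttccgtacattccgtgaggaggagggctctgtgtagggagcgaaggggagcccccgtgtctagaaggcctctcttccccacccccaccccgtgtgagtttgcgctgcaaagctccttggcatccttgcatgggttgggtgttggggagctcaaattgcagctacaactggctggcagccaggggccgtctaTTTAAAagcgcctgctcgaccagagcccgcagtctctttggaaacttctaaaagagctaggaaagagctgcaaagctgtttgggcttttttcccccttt

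TATATA lay at -30 from the start site in Igfbp3, TATAAA at -28 in Igfbp4 and TTTAAA at -49 in Igfbp5, and the Igfbp2 window held none of the 3 hexamers. Of 32851 promoter windows of the same length, 26.7% held at least 1 of the 3 (13.6% held TATAAA, 5.67% held TATATA and 13.2% held TTTAAA). The Igfbp2 window held GGGCGG, a GC box core, at -113, -98 and -37, and CACGTG, an E-box, at -142. GGGCGG was in 35.7% of all windows and CACGTG in 7.15%, both strands counted. The windows were GC-rich: 67% in Igfbp2, 71.7% in Igfbp3, 71.3% in Igfbp4 and 56.3% in Igfbp5, against a median of 52.7% over all windows. They held 18, 37, 27 and 10 CpG in the same order, against a median of 7. These letters describe the sequence and were not tested against expression.

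Reads in genes ranged from 1.51 to 8.67 M (M, mega) per library, which was 10.1 to 27.8% of the reads used as denominator by the authors. The library with fewest reads was that of fl/fl line 3 at day 8, and its column is named as merged. Smchd1 had 197 and 271 reads in del/del and 1212 and 1495 reads in fl/fl libraries at day 1. It was lower in del/del cells on every day, with log2 differences of -2.84, -2.07 and -2.43 at day 1, 5 and 8 (limma adjusted p = 0.00187, 0.043 and 0.00229). At day 5 its reads were 102 and 104 in del/del and 366 and 919 in fl/fl libraries, and Smchd1 was the only gene called that day. No gene was called at day 5 with line as a block, with voom, with array weights or on the deposited scale. The same held in most fits that leave out a library. Far more genes were called only without del/del line 1 at day 5, a fit that leaves a lone library in its group. ES cell markers (7 of 7 genes read) summed to 680 to 813 reads per M gene reads in del/del and 773 to 846 in fl/fl libraries at day 1. Neuromesodermal progenitor markers (7 of 7 read) summed to 450 to 535 in del/del and 401 to 507 in fl/fl libraries at day 5. Very dense genes followed depth weakly: Eef1a1 had between 1680 and 2090 reads in every library, or 674 to 838 per kb of exon. Igfbp2, with up to 1040 reads per kb, reached past that range. Igfbp7, with up to 623, and Igfbp4, with up to 548, came near it. With the trend against read density taken off each library, the day 8 genotype differences of Igfbp2, Igfbp7 and Igfbp4 were 0.89, 1.27 and 1.45 (log2). As reported here they are 0.65, 1.31 and 1.47.

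Levels are given as log2 RPM, reads per M reads, relative to the median gene (relative log2 RPM), and as the same value per kb of exon where genes are compared with each other (relative log2 RPKM). Igfbp2 was the highest of the 8 genes per kb in all 6 groups, and Igf1 was the lowest in all 6. In relative log2 RPKM, Igfbp2 averaged 4.54 ± 0.04 in del/del and 4.58 ± 0.03 in fl/fl cells at day 1, 3.61 ± 0.19 and 3.44 ± 0.34 at day 5, and 4.47 ± 0.34 and 3.81 ± 0.10 at day 8, del/del first each day (SD, n = 2 per group). At day 1 its reads per kb exceeded those of 98.5 to 98.8% of genes. Igf1 averaged -6.63 ± 0.56 in del/del and -6.91 ± 2.24 in fl/fl cells at day 1, and -3.35 ± 0.87 in del/del and -1.65 ± 0.27 in fl/fl cells at day 8.

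The order between these ends changed with time. At day 1 Igfbp3 came second per kb (1.97 ± 0.21 in del/del, 2.08 ± 0.14 in fl/fl cells), and Igfbp4, Igfbp7, Igfbp5, Igf1r and Igfbp6 all lay below 0. At day 5 Igfbp4 was second (3.18 ± 0.18 in del/del, 2.45 ± 0.32 in fl/fl cells), and in fl/fl cells its libraries overlapped those of Igfbp3, which came next. At day 8 Igfbp7 was second (3.81 ± 0.22 in del/del, 2.50 ± 0.06 in fl/fl cells), followed by Igfbp4 (3.68 ± 0.15 and 2.21 ± 0.34) and Igfbp3 (3.10 ± 0.43 and 0.76 ± 0.42). Igfbp7 and Igfbp4 overlapped in del/del cells at day 8, whereas in fl/fl cells both Igfbp7 libraries lay above both Igfbp4 libraries. Igfbp5, at 1.76 ± 0.01, stood below Igfbp3 in del/del cells without overlap, and at 0.41 ± 0.28 it overlapped Igfbp6 in fl/fl cells, which in turn overlapped Igfbp3. Igf1r, the receptor, had a low level per kb, with -0.74 ± 0.21 in del/del and -0.86 ± 0.01 in fl/fl cells at day 8.

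**Figure D1:**
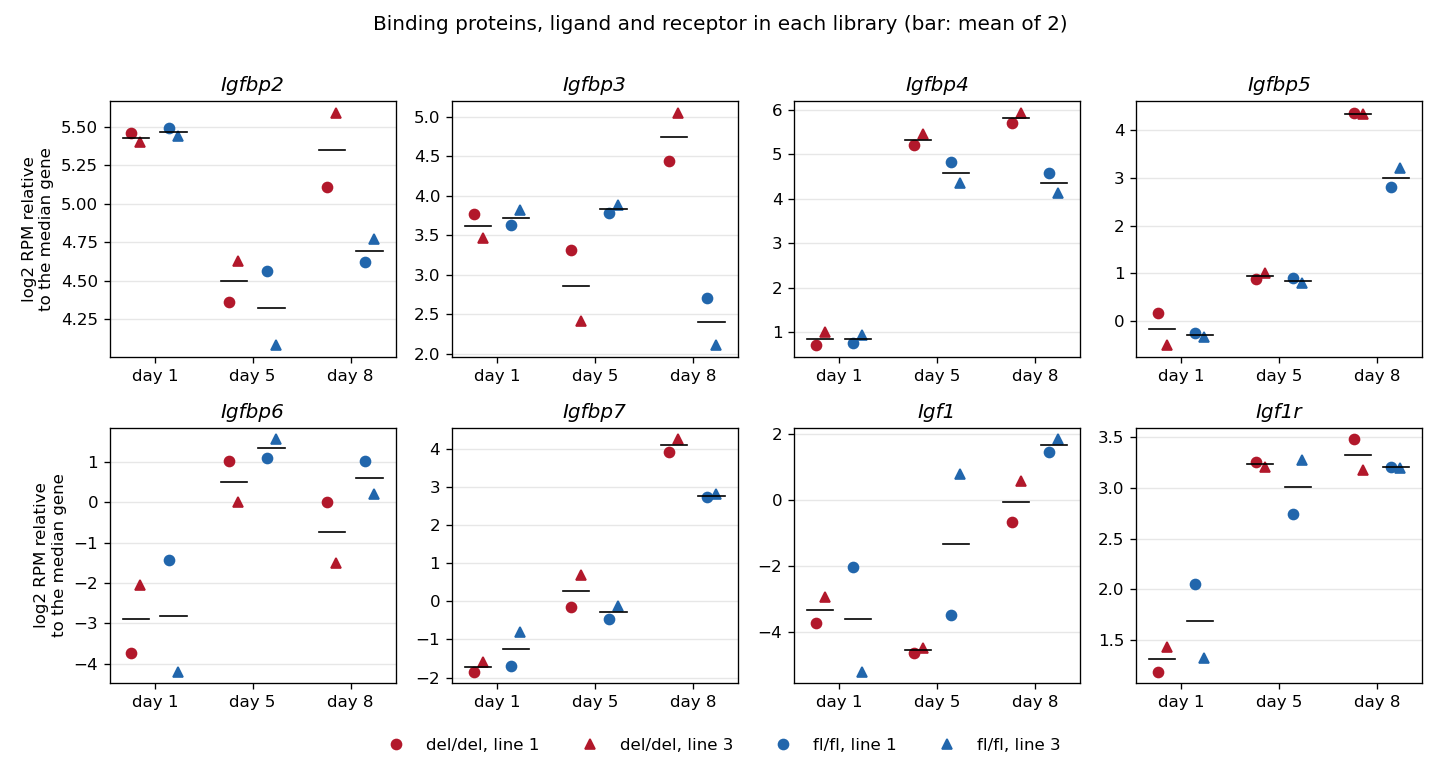
Relative log2 RPM (relative to the median gene, vertical axis, own range in each panel) of the 8 genes at day 1, 5 and 8, with a point per library, del/del red and left of fl/fl blue, circles for line 1, triangles for line 3 and a bar at the mean of 2. At day 8 both del/del libraries lie above both fl/fl libraries for Igfbp2, Igfbp3, Igfbp4, Igfbp5 and Igfbp7, and below them for Igfbp6 and Igf1.

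At day 8, 4 binding protein genes were higher in del/del cells: Igfbp3, Igfbp4, Igfbp5 and Igfbp2, by 5.07, 2.76, 2.54 and 1.57 fold relative to the median gene. None of the 8 genes was called lower. Of all tested genes 15% were called at day 8, 7.95% higher and 7.05% lower, and this share moved widely when single libraries were left out (55 to 4655 genes, against 2109 with all libraries). The 8 genes had a median difference of 0.98 on the log2 scale, with 6 of 8 positive, against 0.02 over all tested genes. In cultures that can hold several cell types, more cells of a type and more RNA per cell cannot be told apart. At the same day, markers of fibroblasts and feeder cells (11 of 11 genes read in either genotype, none at 0) summed to 2621 to 3312 reads per M gene reads in del/del and 364 to 1364 in fl/fl libraries. Of these 11 marker genes 4 were called higher and 10 were positive, with a median of 1.86. Their part in the binding protein differences was not tested.

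Igfbp3, the main IGF carrier of adult serum, had 927 and 1319 reads in the del/del and 196 and 30 reads in the fl/fl libraries of line 1 and line 3 at day 8. Its relative log2 RPM was 4.44 and 5.05 in del/del and 2.71 and 2.11 in fl/fl cells, so the genotypes stood apart in both lines. The difference was 2.34 ± 0.31 (log2, SE, n = 2 each, limma adjusted p = 0.00545), the largest among the 8 genes. Summed over the lines, its reads per unit of library scale were 4.47-fold higher in del/del cells (95% exact interval 3.9 to 5.15, counting error only).

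Igfbp4, a binding protein that mostly restrains IGF and is cut by PAPP-A, had 2235 and 2419 reads in del/del and 726 and 121 reads in fl/fl libraries at day 8. In relative log2 RPM these were 5.71 and 5.93 in del/del and 4.59 and 4.12 in fl/fl cells, again without overlap. The difference was 1.47 ± 0.22 (adjusted p = 0.00729 by limma), and the ratio of summed reads was 2.47 (2.3 to 2.66).

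Igfbp5, which binds extracellular matrix and is also a PAPP-A substrate, had 872 and 801 reads in del/del and 209 and 64 reads in fl/fl libraries. Its relative log2 RPM was 4.36 and 4.33 in del/del and 2.80 and 3.20 in fl/fl cells, and the difference was 1.35 ± 0.30 (limma adjusted p = 0.0201). Igfbp2, a major binding protein of the embryo, had 1469 and 1916 reads in del/del and 741 and 190 reads in fl/fl libraries. At 5.11 and 5.59 in del/del and 4.62 and 4.77 in fl/fl cells, its difference of 0.65 ± 0.19 was the smallest of the 4 called (limma adjusted p = 0.0448). This call was lost in 10 of 23 alternative fits, against 5 for Igfbp5 and 2 each for Igfbp3 and Igfbp4. Leaving out any single day 1 library was enough to lose it, with the difference unchanged at 0.65. The ratios of summed reads were 2.76 (2.43 to 3.15) for Igfbp5 and 1.64 (1.52 to 1.76) for Igfbp2.

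Igfbp7, the low-affinity member, also separated at day 8 but did not pass the test. It had 648 and 753 reads in del/del and 200 and 49 reads in fl/fl libraries, with a relative log2 RPM of 3.93 and 4.25 in del/del and 2.73 and 2.81 in fl/fl cells. The difference was 1.31 ± 0.42 (limma adjusted p = 0.0571), close in size to that of Igfbp5, which had a smaller error. Pairing the libraries by line changed calls at day 8: with line as a block Igfbp7 passed (adjusted p = 0.0444 by limma) and Igfbp2 did not (0.0608), while Igfbp3, Igfbp4 and Igfbp5 passed (0.00967, 0.0134 and 0.0303).

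Igfbp6, which prefers IGF2, was sparse. Its day 8 reads were 43 and 14 in del/del and 61 and 8 in fl/fl libraries, at 0.01 and -1.50 relative log2 RPM in del/del and 1.02 and 0.20 in fl/fl cells. The libraries did not overlap, with del/del lower, and the difference of -1.36 ± 0.92 did not pass (limma adjusted p = 0.311). Igf1, the ligand, had 27 and 59 reads in del/del and 83 and 25 reads in fl/fl libraries, at -0.66 and 0.57 in del/del and 1.47 and 1.84 in fl/fl cells. It too lay lower in both del/del libraries, and the difference of -1.70 ± 1.30 did not pass (limma adjusted p = 0.369). Its receptor Igf1r had 474 and 361 reads in del/del and 279 and 64 reads in fl/fl libraries, its libraries overlapped, and its difference was 0.12 ± 0.27 (limma adjusted p = 0.771). Between del/del and fl/fl libraries of day 8, 32.1% of all tested genes stood apart with del/del higher and 30.9% with del/del lower, against 5 and 2 of the 8 genes.

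The day 8 calls rest on few libraries, among the 8 genes as among all genes. Over all tested genes 2109 were called, against 55 without del/del line 3 at day 8, 308 without fl/fl line 3, 745 without del/del line 1 and 4655 without fl/fl line 1, and 0 when only the day 8 groups were fitted. When fl/fl line 3 at day 8, which had the fewest reads, was left out, Igfbp3 (2.04, limma adjusted p = 0.0321) and Igfbp4 (1.23, 0.0386) were still called, and Igfbp5 (0.0507) and Igfbp2 (0.116) were not. Without del/del day 8 of line 3 none of the 8 was called, with adjusted p-values of 0.055 for Igfbp3, 0.0749 for Igfbp4, 0.155 for Igfbp5 and 0.333 for Igfbp2.

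**Figure D2:**
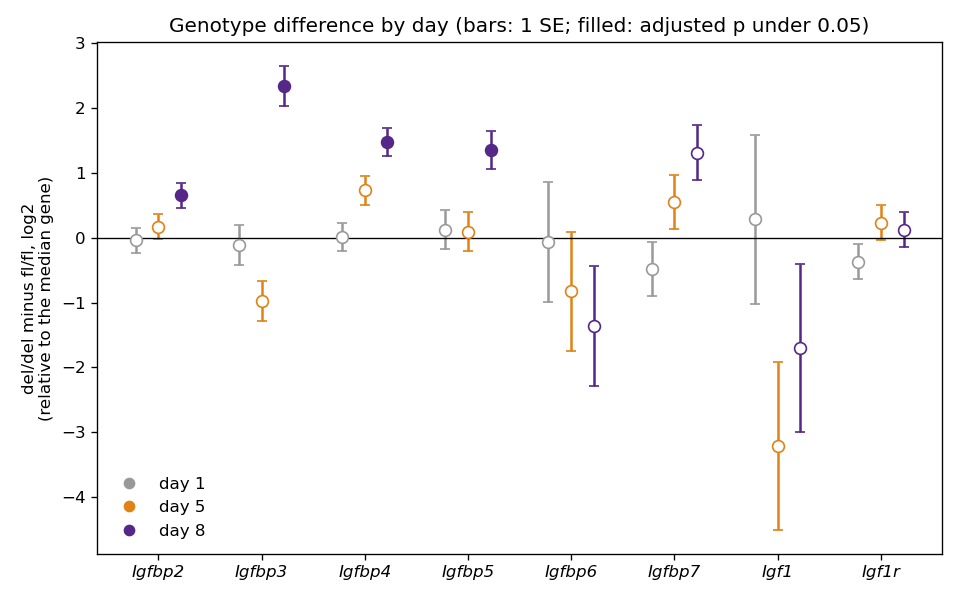
Difference between del/del and fl/fl cells (log2, relative to the median gene) for the 8 genes at day 1 (grey), day 5 (orange) and day 8 (purple), with bars of 1 SE from limma and filled points where the adjusted p was under 0.05. Only Igfbp2, Igfbp3, Igfbp4 and Igfbp5 at day 8 are filled, and the bars of Igfbp6 and Igf1 are the widest.

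At day 1 none of the 8 genes was called between genotypes. Differences ran from -0.48 in Igfbp7 to 0.28 in Igf1, all with a limma adjusted p of 1, and the libraries of the genotypes overlapped in all 8. Across all tested genes 17.4% stood apart at day 1 with del/del higher and 19.8% with del/del lower. Of all tested genes 0.00711% were called at this day, and 170 genes but none of the 8 had an unadjusted p under 0.05. Igfbp2 had 1733 and 1920 reads in del/del and 1452 and 1584 in fl/fl libraries, and Igfbp3 had 538 and 503 in del/del and 400 and 516 in fl/fl libraries. Igfbp4, Igfbp5 and Igfbp7 were low at this stage, with 64 and 91, 44 and 32, and 11 and 15 reads in del/del libraries and 55 and 69, 27 and 29, and 10 and 21 in fl/fl libraries.

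At day 5 none of the 8 genes was called either, with 0.00711% of all tested genes called, although 3 of the 8 and 1088 of all genes had an unadjusted p under 0.05. Igfbp4 lay higher in both del/del libraries (5.20 and 5.45 in del/del, 4.82 and 4.36 in fl/fl cells), a difference of 0.73 ± 0.22 with a limma adjusted p of 0.597. Igfbp3 lay lower in both del/del libraries at day 5 (3.31 and 2.42 in del/del, 3.79 and 3.89 in fl/fl cells), opposite to its order at day 8, with a difference of -0.98 ± 0.31 and the same adjusted p. Leaving out each library, the Igfbp3 difference ran from -0.53 to -1.42, the latter without del/del line 1 at day 5. Of the 8 genes Igfbp4 stood apart with del/del higher, and Igfbp3, Igfbp6 and Igf1 with del/del lower. Across all tested genes 14.3% stood apart at day 5 with del/del higher and 19.8% with del/del lower. Fibroblast and feeder markers summed to 192 to 292 reads per M gene reads in del/del and 109 to 195 in fl/fl libraries at day 5, with Lum at 0 reads in both genotypes.

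Igf1 at day 5 was carried by a single library. It had 1 and 0 reads in the del/del libraries, and 2 and 69 reads in the fl/fl libraries of line 1 and line 3. The fl/fl library of line 3 stood alone, so the difference of -3.21 ± 1.30 (limma adjusted p = 0.597) is that of this library. Summed reads were 51.1-fold lower in del/del cells, with an exact interval of 8.88 to 2045 that covers counting error only. Igfbp6 had 118 reads in the same library, against 20 to 50 in the other 3 of day 5, but that library was deeper (7.6 M gene reads, against 3.99 to 4.78 M). In relative log2 RPM Igfbp6 was 1.56 there, against 1.11 in fl/fl line 1 and 1.02 and -0.00 in the del/del libraries. Averaged over the 3 days, none of the 8 genes was called, with 0.107% of all tested genes called (0.0356% higher, 0.0711% lower), and Igfbp4 came nearest with a mean difference of 0.73 ± 0.13 (limma adjusted p = 0.0514).

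Igfbp3 took opposite courses in the genotypes after day 5. In del/del cells its relative log2 RPM moved by 1.14 in line 1 and 2.64 in line 3 between day 5 and day 8, while in fl/fl cells it moved by -1.08 in line 1 and -1.78 in line 3. The genotype difference grew by 3.32 ± 0.44 (log2) between these days, the largest such change among the 8 genes, with a limma adjusted p of 0.0535. Just 1 gene in the whole table, or 0.00711% of those tested, was called in this comparison. An unadjusted limma p under 0.05 was found for 3 of the 8 genes and for 1925 of all 14063 tested genes. Between day 1 and day 5 Igfbp3 had stepped the other way, by -0.46 and -1.05 in del/del lines against 0.16 and 0.07 in fl/fl lines, a change in the difference of -0.87 ± 0.44 (limma adjusted p = 0.962).

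Igfbp4 showed a smaller divergence after day 5, with steps of 0.52 and 0.48 in the del/del lines and -0.23 and -0.25 in the fl/fl lines. The change in its genotype difference was 0.74 ± 0.31 (limma adjusted p = 0.355). Steps of opposite sign in all lines of the genotypes were seen in 8.6% of all tested genes between day 5 and day 8, and in 3.19% between day 1 and day 5. Igfbp5 increased in every line of both genotypes over the last interval, and the change in its genotype difference was 1.25 ± 0.42 (limma adjusted p = 0.333).

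**Figure D3:**
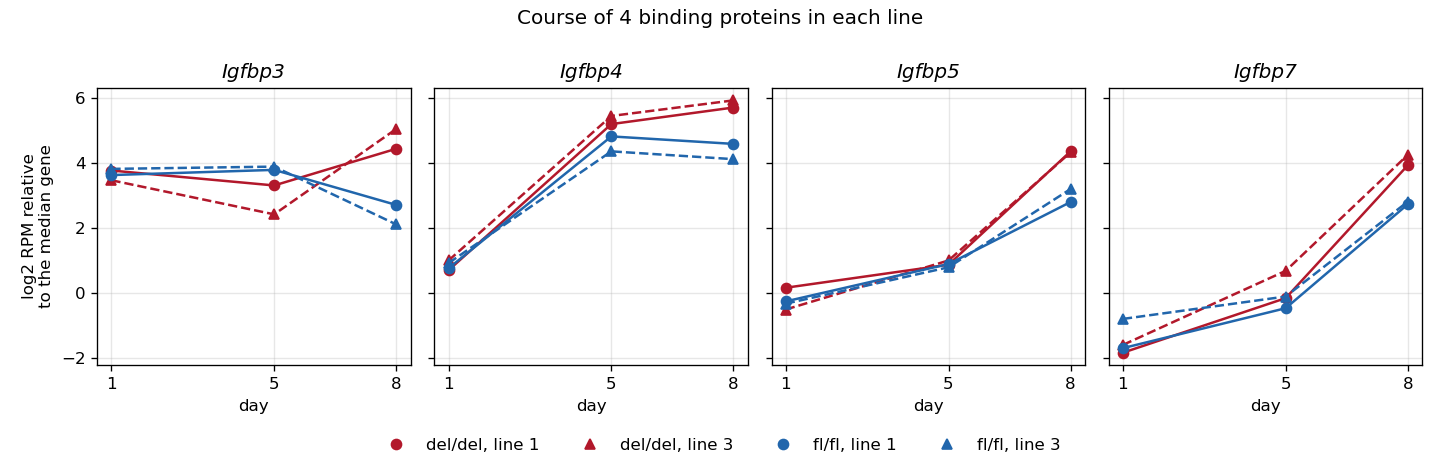
Relative log2 RPM of Igfbp3, Igfbp4, Igfbp5 and Igfbp7 against the day of sampling on a common vertical axis, with del/del red, fl/fl blue, line 1 as circles on full lines and line 3 as triangles on dashed lines. Igfbp3 parts in opposite directions between day 5 and day 8 (1.14 and 2.64 in del/del, -1.08 and -1.78 in fl/fl lines), Igfbp4 goes up steeply before day 5, and Igfbp5 and Igfbp7 go up steeply after it.

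Most of the 8 genes differed between day 1 and day 5 in both genotypes. Between day 1 and day 5, 5 of the 8 were higher and 1 lower at day 5 in del/del cells, and 4 were higher and 1 lower in fl/fl cells, while 39.5% of all tested genes were called in del/del (21.2% higher, 18.3% lower) and 40.9% in fl/fl cells (23% higher, 17.9% lower). The del/del and fl/fl time courses share no library, whereas the 2 intervals share the day 5 libraries. Igfbp4 rose by 4.48 in del/del and 3.75 in fl/fl cells on the log2 scale (SE 0.22, limma adjusted p = 9.84e-07 and 2.17e-06). Igfbp6 rose by 3.39 in del/del and 4.15 in fl/fl cells (SE 0.92, limma adjusted p = 0.0134 and 0.00455). Its day 1 libraries held 3 and 11 reads in del/del and 12 and 2 reads in fl/fl cells.

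Igfbp5 rose by 1.11 in del/del and 1.14 in fl/fl cells between day 1 and day 5 (limma adjusted p = 0.013 and 0.0115), and Igf1r by 1.93 in del/del and 1.33 in fl/fl cells (0.000324 and 0.00303). On the deposited scale neither gene was called. Igfbp5 was at 0.20 in del/del and 0.76 in fl/fl cells (limma adjusted p = 0.754 and 0.295), and Igf1r at 1.02 and 0.95 (0.113 and 0.198). Igfbp7 rose in del/del cells by 1.98 (0.00364), and its value of 0.96 in fl/fl cells did not pass (0.091). Its rise in del/del cells was not called on the deposited scale (1.07, limma adjusted p = 0.154). Igfbp2 was the gene that went down: it fell by 0.93 in del/del and by 1.14 in fl/fl cells (limma adjusted p = 0.00312 and 0.000928), with 504 and 496 reads in del/del and 522 and 677 reads in fl/fl libraries at day 5. Igfbp3 did not pass in either genotype, at -0.75 in del/del (0.074) and 0.11 in fl/fl cells (0.792). In del/del cells it was called lower on the deposited scale (-1.66, limma adjusted p = 0.0166).

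Between day 5 and day 8, 5 of the 8 genes were higher at day 8 in del/del cells, with 11.9% of all tested genes called (7.24% higher, 4.67% lower), and in fl/fl cells 2 were higher and 1 lower, with 6.73% called (3.15% higher, 3.58% lower). Igfbp5 and Igfbp7 rose in both genotypes. Igfbp5 rose by 3.41 in del/del and 2.16 in fl/fl cells (SE 0.30, limma adjusted p = 0.000212 and 0.00467). Igfbp7 rose by 3.83 in del/del and 3.06 in fl/fl cells (SE 0.42, limma adjusted p = 0.000516 and 0.00457). Both rises in del/del cells were called in all 23 alternative fits. In fl/fl cells the call was lost in 4 of them for Igfbp5, as on the deposited scale (1.61, limma adjusted p = 0.115), and in 2 for Igfbp7. Igfbp3 rose by 1.89 in del/del cells (0.00413) and fell by 1.43 in fl/fl cells (0.0244). The fall in fl/fl cells was not called in 7 of 23 alternative fits, among them those without fl/fl line 3 at day 8 (-1.13, 0.115) and without fl/fl line 1 or line 3 at day 5 (0.153 and 0.111).

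Igfbp2 came back up by 0.86 in del/del cells (limma adjusted p = 0.0177), with a value of 0.38 in fl/fl cells that did not pass (0.252). Igf1 rose by 4.51 ± 1.30 in del/del cells (limma adjusted p = 0.0476), where it had 1 and 0 reads at day 5 and 27 and 59 at day 8, so that this size depends on how 0 reads are entered. The call was lost in 10 of 23 alternative fits, among them line as a block (limma adjusted p = 0.0617), voom (0.0733) and array weights (0.192). Leaving out any single del/del library also ended the call, with rises of 3.89 to 5.12. Igf1r did not pass after day 5, at 0.09 in del/del and 0.20 in fl/fl cells (limma adjusted p = 0.86 and 0.692). Igfbp4 moved by 0.50 in del/del (0.164) and by -0.24 in fl/fl cells (0.533), and Igfbp6 by -1.25 in del/del (0.403) and -0.73 in fl/fl cells (0.661).

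Among the 8 genes, Igfbp5 and Igfbp7 had the most similar courses over the 12 libraries. The root mean square difference of their centred relative log2 RPM was 0.58, and Igfbp5 was the third closest of all tested genes to Igfbp7, after Thbs1 (0.41) and Fam38b (0.55). Igfbp5 and its genomic neighbour Igfbp2 were further apart, at 1.79. The closest genes to Igfbp4 were Notum (0.30), which encodes a Wnt deacylase, and then Fbln2 and Oaf (0.40 each). Fbln2 is also in the list of fibroblast and feeder markers. The closest to Igfbp3 were Bai2 (0.34), Arhgap29 (0.45) and Supt3h (0.46), and to Igfbp5 Msrb3, Frmd4a and Rhoj (0.42 each). Igfbp2 was matched by Ttc21b and Piga (0.17 each) and Igf1r by Iffo1 (0.15). The distances of the sparse genes were larger, at 0.67 between Igfbp6 and Tns4 and at 1.32 between Igf1 and Sox5. These distances are descriptions over libraries that share lines and sampling days.

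Other genes of the pathway were read from 7 lists of 59 genes, all in the table and 51 of them tested. At day 8, 2 were higher and 4 lower in del/del cells, against 7.95% higher and 7.05% lower among all tested genes, so their count does not set the pathway apart. None was called at day 1, at day 5 or over the mean of days. Higher were Grb10, an adaptor that binds and restrains the insulin and IGF1 receptors (1.74 ± 0.32, limma adjusted p = 0.0131), and Mmp2, a matrix metalloproteinase able to cut binding proteins (2.27 ± 0.62, 0.0366). Grb10 had 2023 and 3083 reads in del/del and 731 and 95 reads in fl/fl libraries, and Mmp2 had 1849 and 2236 in del/del and 595 and 37 in fl/fl libraries. Both stood apart between genotypes in both lines. The Mmp2 difference was 1.32 (0.228) without fl/fl line 3 at day 8, which held its 37 reads, and 3.22 (0.00399) without fl/fl line 1, by limma.

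The calls of the 4 lower genes depended on rescaling the libraries. By total gene reads Foxo4 (-1.39), Gab1 (-1.16) and Pik3cb (-0.90) were called (limma adjusted p = 0.00754, 0.0169 and 0.0431). Gsk3b was not (-0.46, limma adjusted p = 0.088). On the deposited scale none of them was called, with values of -0.63 for Foxo4, -0.40 for Gab1, -0.15 for Pik3cb and 0.30 for Gsk3b (limma adjusted p = 0.189, 0.386, 0.792 and 0.554). Foxo4, a transcription factor inhibited by Akt, had a relative log2 RPM of 4.34 and 4.49 in del/del and 5.58 and 6.27 in fl/fl cells (-1.51 ± 0.21, limma adjusted p = 0.00711). Gab1, a docking adaptor, differed by -1.28 ± 0.24 (0.0141), Pik3cb, a catalytic subunit of PI3K, by -1.03 ± 0.26 (0.0274), and Gsk3b, a kinase that Akt inhibits, by -0.58 ± 0.17 (0.042). Gsk3b lost its call with line as a block (0.0528). Without fl/fl day 8 of line 3, or without del/del day 8 of line 3, Foxo4 was the only one of these 6 still called relative to the median gene (limma adjusted p = 0.03 and 0.0471).

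By list, 1 of 9 tested receptor adaptors was higher and 1 lower at day 8, 1 of 9 proteases and inhibitors was higher, and 3 of 19 PI3K, Akt and mTOR genes were lower. None was called among 3 further ligand and receptor genes, 3 other binding proteins and subunits, 3 IGF2 mRNA binding proteins and 5 IGFBP-related secreted proteins. Igf2, the main embryonic ligand, was looked up after its values were seen: its day 8 difference was -0.50 ± 0.26 (limma adjusted p = 0.194).

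**Figure D4:**
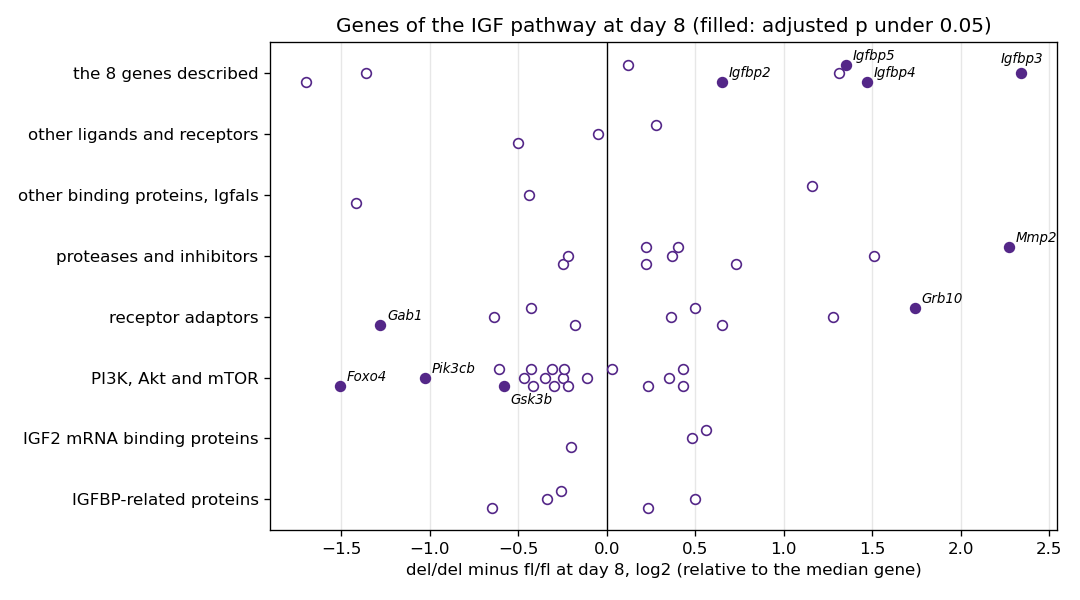
Difference between del/del and fl/fl cells at day 8 (log2, relative to the median gene, horizontal axis) for the 8 genes and for the 51 tested genes of 7 pathway lists, with a point per gene, spread vertically within its list for legibility, and filled and named where the limma adjusted p was under 0.05. Filled points to the right are Igfbp2, Igfbp3, Igfbp4, Igfbp5, Grb10 (1.74) and Mmp2 (2.27), and to the left Foxo4 (-1.51), Gab1 (-1.28), Pik3cb (-1.03) and Gsk3b (-0.58).

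Over time, 20 of the 51 pathway genes were higher and 9 lower at day 5 than at day 1 in del/del cells. In fl/fl cells 23 were higher and 6 lower. Among all tested genes 21.2% were higher and 18.3% lower in del/del cells, and 23% higher and 17.9% lower in fl/fl cells. Igf2 rose by 3.12 in del/del and 2.44 in fl/fl cells, Insr, the insulin receptor gene, by 1.80 in del/del and 1.78 in fl/fl cells, and Irs1, an adaptor of both receptors, by 3.66 in del/del and 2.42 in fl/fl cells. All 6 of these values had a limma adjusted p under 0.05, from 4.43e-06 for Irs1 in del/del to 0.00198 for Insr in fl/fl cells. Insr was not called on the deposited scale (0.90 in del/del and 1.41 in fl/fl cells, limma adjusted p = 0.194 and 0.0846). Pappa, the gene for the protease that cuts IGFBP4 and IGFBP5, was too sparse for a size: it had 0 reads in both del/del libraries at day 1 and 3 and 5 at day 5, and in fl/fl libraries 2 and 0 at day 1 and 6 and 8 at day 5.

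Between day 5 and day 8, 15 pathway genes were higher and 2 lower in del/del cells, and 13 were higher and none lower in fl/fl cells. Among all tested genes 7.24% were higher and 4.67% lower in del/del cells, and 3.15% higher and 3.58% lower in fl/fl cells. Htra1, a secreted serine protease that cuts IGFBP5, rose by 3.02 in del/del and 1.63 in fl/fl cells (limma adjusted p = 0.000133 and 0.00606). Ctgf, a CCN family protein with a domain related to the binding proteins, rose by 2.37 in del/del and 2.15 in fl/fl cells (0.000315 and 0.0027), and Irs1 again, by 2.18 in del/del and 2.48 in fl/fl cells (0.0008 and 0.0027). In fl/fl cells none of these 3 was called on the deposited scale (0.229 for Htra1, 0.0629 for Ctgf and 0.0781 for Irs1).

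Markers of other cells that the cultures could hold also differed at day 8. Of all tested genes 7.95% were called higher and 7.05% lower that day, and a list with 1 gene called cannot be told apart from these shares. Cdx2 is in both the trophoblast and the neuromesodermal list. Extraembryonic endoderm markers summed to 2672 to 3678 reads per M gene reads in del/del (11 of 12 read, Ttr at 0) and 5589 to 7426 in fl/fl libraries (12 of 12), with 4 of 10 tested genes lower. Trophoblast markers summed to 320 to 467 in del/del (7 of 8 read, Elf5 at 0) and 721 to 1634 in fl/fl libraries (8 of 8), with 3 of 7 tested genes lower. Endothelial markers summed to 17 to 44.6 in del/del (5 of 6 read, Emcn at 0) and 98.9 to 149 in fl/fl libraries (6 of 6), with 1 of 5 tested genes lower. ES cell markers summed to 227 to 271 in del/del and 368 to 390 in fl/fl libraries, with 2 of 7 lower. Neuromesodermal markers summed to 118 to 148 in del/del (7 of 7 read) and 204 to 213 in fl/fl libraries (6 of 7, Wnt3a at 0), with 1 of 6 lower. Paraxial mesoderm markers summed to 67.2 to 110 in del/del (6 of 6 read) and 25.2 to 41.3 in fl/fl libraries (5 of 6, Meox1 at 0), with 2 of 5 tested genes higher. The part of these cell types in the differences of Igfbp2, Igfbp3, Igfbp4, Igfbp5 and Igfbp7 was not tested.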

How the data were processed

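RNA libraries from 12 cultures were prepared with Illumina protocols, per the labels' protocols. Per the submitters' processing notes, the tools were edgeR, bcl2fastq and TopHat2 2.0.12, and the build was mm10. No source used here gives their roles, strand use or duplicate removal. The authors deposited log2 RPM (M, mega) for 25965 genes in 12 columns. Out of the log2 these are whole reads (within 0.02 reads for 100% of values), with 0 entered as 0.9 reads, which gave the read numbers. On the deposited scale the median gene differed between genotypes by 0.15 at day 1, -0.40 at day 5 and 0.90 at day 8, so each library was rescaled to the median gene. Genes above a deposited log2 of 0 in at least 2 libraries were tested (14063) with limma 3.58.1 in R 4.3.3, with 6 group means, a mean-variance trend and Benjamini-Hochberg adjustment over all tested genes at 0.05. Exon lengths came from GENCODE M21, matched for 22686 of 25899 distinct gene names, and promoters from RefSeq.

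Libraries of a line share an origin in 1 blastocyst, per the labels' protocols, so line number pairs them. Deviations of same-line libraries correlated at 0.135 at day 1, -0.154 at day 5 and -0.111 at day 8. On simulated reads for the day 8 genotype comparison (13625 genes tested), 18% of 2-fold and 78% of 4-fold changes were recovered. Only a small share of genes was changed, all drawn from the better-read ones, with a single spread setting for all genes and no change over time. These rates therefore describe the simulation and do not give the sensitivity of the day 8 test on the data. The 8 genes, the pathway and marker lists and the rule for naming pathway genes (up to 4 called per list and comparison) and the 3 closest genes were chosen with earlier results of these data known. Alternatives were 3 other scalings, 2 other filters, 2 reads added before the log2, voom on the recovered reads, array weights, a replicate block, a fit of only the groups compared, leaving out each library, and, chosen after seeing the data, removal of the trend with reads per exon kb.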

Additional observations from a re-analysis of the deposited data

Results flagged for a closer look

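The genotype difference of Igfbp3 changed by 3.32 (log2, limma adjusted p = 0.0535) between day 5 and day 8, because both del/del lines stepped up and both fl/fl lines stepped down. Between day 1 and day 5 it changed by -0.87 (0.962), with both del/del lines down and both fl/fl lines up. The difference of Igfbp4 changed by 0.74 (0.355) between day 5 and day 8, with both del/del lines up and both fl/fl lines down. None of these 3 changes passed the test of the difference itself.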

How the results depend on the processing

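For the 8 genes, 53 results were set against the alternatives, in 1218 pairs of a result and a setting. Of these pairs 1121 had the same direction and side of the threshold, and 62 were past the threshold only in the reported fit. A further 22 were past it only under the alternative, and 13 were of opposite sign. The 53 left out the day 1 genotype differences and most results for the mean over days and for changes in the genotype difference. The count of the 8 genes called at day 8 was 4, and was 2 with array weights, 0 when only the groups compared were fitted (adjusted p of 0.0539 to 0.133 for the 4) 5 on the deposited scale, by total gene reads, with 2 reads added and with voom, and 0 to 5 leaving out each library (5, with Igfbp7, without either del/del day 5 library), where a lone library was taken to vary like the other groups. Leaving out libraries gave 0 to 1 called at day 5, over the mean of days and in the change between day 5 and day 8. The mean over days had 1 called with no filter and with array weights. The change between day 5 and day 8 had 1 (Igfbp3) on the deposited scale, by total gene reads and with no filter. Between day 1 and day 5, 3 were called in fl/fl cells on the deposited scale. Between day 5 and day 8 in del/del cells 3 were called with array weights and with only the groups compared, and 2 to 5 leaving out libraries. In fl/fl cells 1 was called on the deposited scale, 0 with array weights, 1 with only the groups compared and 0 to 3 leaving out libraries (0 without fl/fl day 5 of line 1). On the deposited scale these signs turned, because all genes shift with the library: at day 5 Igfbp2 (-0.20), Igfbp5 (-0.28) and Igf1r (-0.15), at day 8 Igf2 (0.38) and Gsk3b (0.30), from day 1 to day 5 in fl/fl cells Igfbp3 (-0.26), and from day 5 to day 8 in fl/fl cells Igfbp2 (-0.18) and Igf1r (-0.36). Igf1r in del/del cells between day 5 and day 8 turned with the density trend removed (-0.15), and the cause was not tested. Leaving out libraries turned values near 0: Igf1r at day 5 (-0.04 to 0.50), at day 8 (-0.02 to 0.27) and between day 5 and day 8 (-0.05 to 0.24 in del/del, -0.07 to 0.47 in fl/fl cells), Igfbp2 at day 5 (-0.07 to 0.41) and Igfbp4 between day 5 and day 8 in fl/fl cells (-0.48 to 0.00). With a replicate block the pairing changed 4 calls (Igfbp2, Igfbp7 and Gsk3b at day 8, Igf1 between day 5 and day 8) and ended the call of Smchd1 at day 5. Over all tested genes the block gave 0 called at day 5 (1 without it), 1 over the mean of days (15 without it) and 0 in the change between day 5 and day 8 (1 without it). On the deposited scale Igfbp2, Igfbp3, Igfbp4, Igfbp5 and Igfbp7 differed at day 8 by 1.53, 3.22, 2.35, 2.23 and 2.19, and with the density trend removed Igfbp2 differed by 0.89 (limma adjusted p = 0.0107). Depth limits Igf1 and Igfbp6 most.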

Other observations

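Igfbp1, the neighbour of Igfbp3 on chromosome 11 with 3539 bases between them, was looked up after its values were seen. At day 8 it had 0 reads in del/del line 1, 305 in del/del line 3, 70 in fl/fl line 1 and 0 in fl/fl line 3. It had 7 reads in del/del line 3 at day 5 and 0 in the other 7 libraries of day 1 and day 5. Its day 8 difference was -0.44 ± 2.29 (log2, limma adjusted p = 0.908), and this sign depends on how 0 reads are entered. In relative log2 RPM, 0 reads stood at -5.56 in del/del line 1 and at -2.95 in the shallower fl/fl line 3. Summed reads per unit of library scale went the other way, 1.96-fold higher in del/del cells (exact interval 1.51 to 2.58, counting error only). Each side of that ratio rests on 1 library. The lines differed within each genotype by more than the genotypes did.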
